A study of Mus musculus with 6 samples.

Results

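The cholesterol synthesis and uptake genes are 31 genes that make cholesterol, sense its level, move it inside the cell, export it or store it as ester. They were taken by symbol from the deposited table of 22322 genes, where each of the 31 symbols named 1 row. All 31 passed the filter on low counts and were among the 11488 genes tested. RNA-Seq was performed on DP (CD4+CD8+) thymocytes sorted by flow cytometry, in 3 libraries from control mice and 3 libraries from Paxbp1 cKO mice. Both groups were Paxbp1fl/fl on the C57BL/6 background, with exon 8 of Paxbp1 between loxP sites, and received no treatment. The cKO mice also carried an Lck-cre transgene, in which the Lck promoter drives Cre from the early T-cell stages, while the controls were littermates that the labels name WT and give as Paxbp1fl/fl. Mice were 4 to 7 weeks old and of mixed sexes, and neither the labels nor the methods say whether a library came from 1 mouse or from several. The comparison asks how transcript levels differ between DP cells with and without the Lck-cre deletion, and the cholesterol genes are described within it.

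Cholesterol is built from acetyl-CoA through mevalonate and isoprenoid diphosphates to squalene, which is closed to lanosterol and trimmed to cholesterol. When sterol in the endoplasmic reticulum is low, Scap carries the SREBP proteins (products of Srebf1 and Srebf2) to the Golgi, where proteases release the factors that switch on the synthesis genes. Insig1 and Insig2 hold Scap back when sterol is plentiful, and oxysterols turn on export through LXR. Dividing lymphocytes need new membrane and are known to raise sterol synthesis, and thymocytes divide heavily before they come to rest as small DP cells.

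The libraries held 18963775 to 26252248 counts in total. Levels below are in CPM, counts scaled to library size and TMM factor, where a single count amounts to 0.0381 to 0.0527 CPM. Differences are log2 fold changes of the libraries labelled cKO over control with their standard error (SE), from edgeR's quasi-likelihood test, and a gene was called at a Benjamini-Hochberg adjusted p below 0.05 over all tested genes. Of the targeted gene Paxbp1, the control libraries held 40.2, 16.4 and 15.5 CPM and the libraries labelled cKO 38.9, 47.1 and 49.6 CPM (log2 fold change 0.92, SE 0.33, edgeR adjusted p = 0.0977). The counts are per gene and not per exon, so they do not check the deletion of exon 8, and every direction below rests on the labels. The DP identity was checked on a list of 14 genes. The receptor genes Cd4, Cd8a and Cd8b1 and the recombinase gene Rag1 were at 162 CPM or more in every library. Others of the list were lower, such as Ptcra with 50.5 CPM in control 1 and Cd1d1 with 61.2 CPM in cKO 3. All 14 had a log2 fold change below 0, with 5 called lower, where 5.89% of all tested genes were called lower. The summed level of the 14 was 14130 to 16190 CPM in the control libraries and 10530 to 12300 CPM in those labelled cKO.

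The promoters of the members are shown first, since SREBP-responsive genes are known for sterol regulatory elements that lie beside boxes for NF-Y and Sp1. RefSeq promoter windows on GRCm38.p6, running from 250 bases before to 50 after a start site, were found for 24 of the 31 members. Both strands were searched for TCACNCCAC (sterol regulatory element), TCACGTGA (an E-box form), CCAAT (NF-Y box) and GGGCGG (Sp1 box), each on its own, so that matches of different motifs may share bases. The CCAAT box was present in a window of 14 of 15 synthesis enzymes and of 6 of 9 other members, and in 41.1% of all 27025 genes with a window. The Sp1 box was present for 14 of 15 enzymes and 8 of 9 other members, against 38.2% of all genes. The sterol regulatory element in these letters was found for 1 member, Hmgcs1, and for 1.44% of all genes. The E-box form was found for 0 of the 24 members and for 1.12% of all genes. The shares over all genes are not limited to the genes tested here, whereas all members were tested. A gene with several windows has more room for a match, and Dhcr7, Insig2 and Srebf1 had 3 each. These are matches of letters, and no binding was measured.

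The stretch of 160 bases before the start site is given for Hmgcs1 (chr13:119690191-119690350, plus strand), which held 3 of the 4 motifs, and for Abca1 (chr4:53159896-53160055, minus strand), an export gene that held no CCAAT box. Capitals mark the matches, which are the sterol regulatory element, an Sp1 box, a CCAAT box and an Sp1 box in Hmgcs1 from left to right, and an Sp1 box in Abca1. 
Hmgcs1: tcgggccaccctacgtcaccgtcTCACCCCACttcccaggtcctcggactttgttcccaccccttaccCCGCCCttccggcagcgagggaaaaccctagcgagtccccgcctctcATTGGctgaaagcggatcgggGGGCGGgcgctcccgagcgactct
Abca1: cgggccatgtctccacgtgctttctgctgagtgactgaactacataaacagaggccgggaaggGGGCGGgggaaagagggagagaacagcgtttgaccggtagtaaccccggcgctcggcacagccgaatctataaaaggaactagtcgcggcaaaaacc

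For 4 of the 5 members called in the comparison, and for Mvd and Insig1, which fell short of a call, the CCAAT box nearest the start site is given in capitals, with 12 bases on each side and read along the gene's own strand, where ATTGG is the same box on the other strand. It was present in members called higher (Idi1 and Cyp51) and called lower (Npc2 and Soat1), and the boxes of Idi1, Cyp51, Mvd, Npc2 and Soat1 lay 14, 29, 27, 6 and 30 bases before the start site, while that of Insig1 lay 216 bases before it.
Idi1: gtccaaggtgccATTGGctggcgaccgac
Cyp51: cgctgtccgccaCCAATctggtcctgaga
Mvd: ccggccagcgggCCAATcatatggcagcg
Insig1: cgccctcctcccATTGGctccggcggcct
Npc2: agtgggtcggtaCCAATagagcggggcga
Soat1: gccgcaggaccaCCAATggcatcccggag

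Levels of different members are compared by FPKM, which is scaled by gene length, and only within the list. By the mean FPKM of the control libraries, Nr1h2, which encodes the sterol receptor LXR beta, was the highest of the 31 members at 74.7 ± 2.98 FPKM (mean ± S.D., n = 3). The exporter gene Abcg1 followed at 69.2 FPKM, with a range of 59.3 to 86.5 FPKM, then Soat1, whose enzyme esterifies cholesterol for storage, at 54.9 ± 8.07 FPKM, and Npc2, which hands cholesterol out of the lysosome, at 49.3 ± 3.12 FPKM. The ranges of Nr1h2 and Abcg1 overlapped over the control libraries, as did those of Soat1 and Npc2.

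Among the enzymes, Fdps (42.8 ± 15.4 FPKM), which makes farnesyl diphosphate, Dhcr7 (40.8 ± 2.36 FPKM), which catalyses a last step of the pathway, and Acat2 (38.5 ± 8.87 FPKM), which joins the first acetyl units, were the highest and were not apart beyond their spread. At the low end stood Lss (4.83 ± 1.31 FPKM), the lanosterol synthase, Hsd17b7 (4.29 ± 1.72 FPKM), which acts in the removal of methyl groups, and Tm7sf2 (3.88 ± 1.39 FPKM), a sterol reductase. Soat2, the isoform of intestine and liver, had between 0 and 16 counts in a library. Soat1 lay between 42.8 and 63.97 FPKM over the 6 libraries, so the esterification isoform detected in quantity was Soat1. Abca1, the other sterol exporter of the list, stood at 5.36 ± 1.23 FPKM in the control libraries, far below Abcg1 in each of them.

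**Figure D1:**
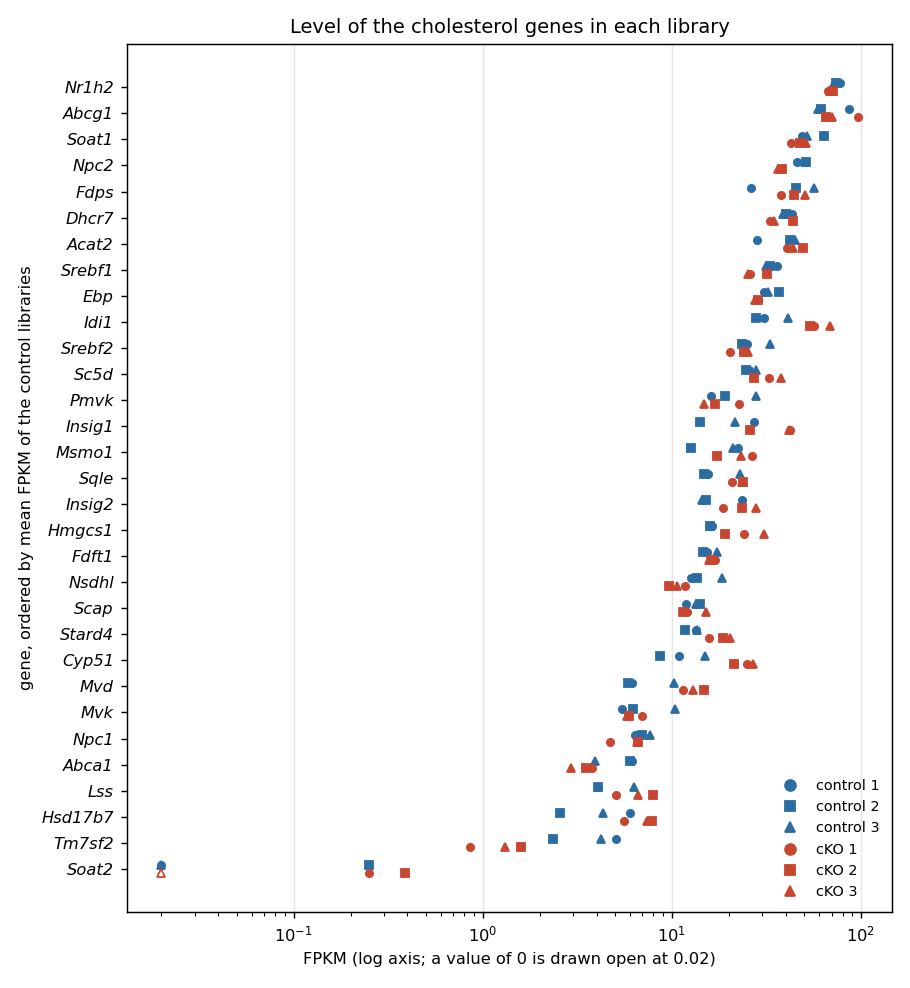
FPKM of the 31 cholesterol genes in each library, on a log axis, ordered by the mean of the control libraries (blue) beside the libraries labelled cKO (red), with 1 symbol per replicate number. Levels ran from Nr1h2 at 74.7 FPKM down to Soat2 near 0, and the ranges of the red and blue symbols overlapped for most genes. All red symbols lay to the right of the blue ones for Cyp51, Idi1, Mvd, Hmgcs1 and Stard4. They lay to the left for Tm7sf2, Nsdhl, Ebp, Npc2, Abca1 and Nr1h2.

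In the comparison, 2 members were called higher in the libraries labelled cKO, both of them synthesis enzymes (11.1% of the 18 enzymes). Another 3 were called lower, all of them outside synthesis (23.1% of the 13 other members). The 2 higher members make up 6.45% of the 31, where 4.47% of all tested genes were called higher, and the 3 lower members make up 9.68%, where 5.89% were called lower, so neither share lay far from the rest of the transcriptome. When an absolute log2 fold change above 1 was required as well, 1 member was higher, where 1.53% of all tested genes were, and 0 were lower in edgeR (1 in DESeq2, Tm7sf2), where 1.23% were. At an unadjusted p below 0.05 in edgeR, 6 of the 31 members were higher and 7 lower, where 13.3% and 14.6% of all tested genes were. DESeq2 called 5 members higher and 4 lower at an adjusted p below 0.05, where it called 8.3% and 8.59% of all genes. The split by role did not hold there, since DESeq2 called Insig1, which is no enzyme, higher and the enzyme gene Tm7sf2 lower. All libraries of one group lay on the same side of the other for 6 members in the higher direction (19.4%, against 15.7% of all tested genes) and for 8 in the lower direction (25.8%, against 17.3%). By group, 12 of the 18 synthesis enzymes had a log2 fold change above 0 (median 0.21), and 8 of the 13 other members had one below 0 (median -0.14), while the median over all tested genes was -0.0017.

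**Figure D2:**
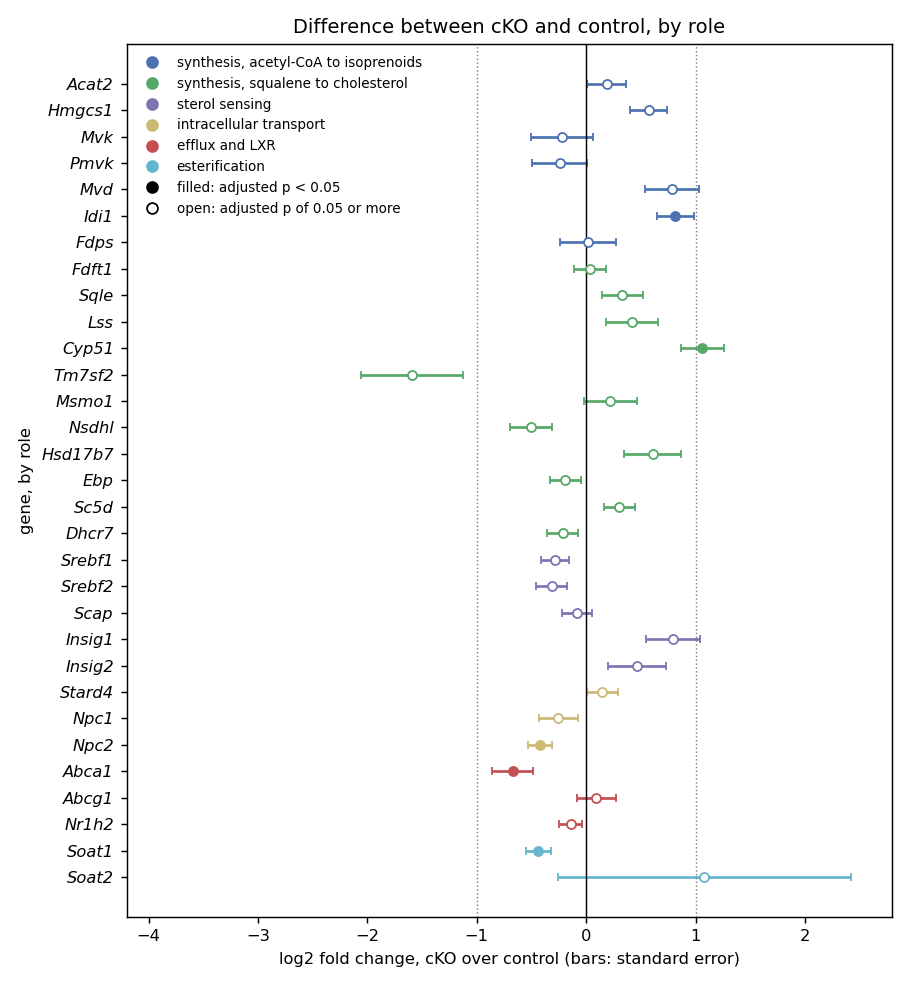
Log2 fold change of each member, libraries labelled cKO over control, with its edgeR standard error, grouped by role from synthesis at the top to esterification at the bottom. Filled points are the 5 members called (Idi1 and Cyp51 to the right of 0, Npc2, Abca1 and Soat1 to the left), open points are the other 26, and dotted lines mark a log2 fold change of -1 and 1.

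The early enzymes carry acetyl-CoA to farnesyl diphosphate. Of these 7 genes, Idi1, which interconverts the building blocks of all isoprenoids (ENSMUSG00000058258, chromosome 13 of GRCm38 from 8885501 to 8892451), was called. Its level was 91.7, 83.9 and 124 CPM in control libraries 1, 2 and 3, and 167, 157 and 205 CPM in the libraries labelled cKO 1, 2 and 3. Every library labelled cKO lay above every control library, with control 3 nearest to them. The log2 fold change was 0.82 (SE 0.17, edgeR adjusted p = 0.0160), or 1.76-fold. Without control 2, cKO 1 or cKO 3 it lost the call (edgeR adjusted p = 0.0651, 0.0508 and 0.0892).

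Hmgcs1, the cytosolic synthase that commits acetyl units to the mevalonate route, was at 53.0, 52.9 and 53.1 CPM in the control libraries and 78.2, 60.8 and 97.6 CPM in those labelled cKO. The control libraries were nearly equal and the others all higher, but widely spread, and the difference did not pass (log2 fold change 0.57, SE 0.17, edgeR adjusted p = 0.0568). Mvd, the decarboxylase that yields the first isoprenoid unit, was at 10.7, 10.6 and 18.3 CPM in the control libraries and 19.95, 25.7 and 22.9 CPM in those labelled cKO. Here too the groups were apart, with control 3 close to cKO 1, and the call was missed (log2 fold change 0.78, SE 0.25, edgeR adjusted p = 0.0685). DESeq2 called both genes, with adjusted p of 0.0146 for Hmgcs1 and 0.0251 for Mvd. In edgeR, Hmgcs1 was called without cKO 2 (adjusted p = 0.0319) and Mvd without control 3 (adjusted p = 0.0290).

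The other 4 early genes overlapped between the groups. Acat2, the kinase genes Mvk and Pmvk, and Fdps had log2 fold changes of 0.19, -0.22, -0.24 and 0.019, with an SE between 0.18 and 0.29. Fdps varied widely among the control libraries, at 31.9, 56.8 and 71.99 CPM, and its sign changed when control 1 or cKO 3 was left out. The values of the kinase genes Mvk and Pmvk turned positive without control 3, their highest control library. Reads of Acat2 could be shared with its close copy Acat3, which held at most 9 counts in a library.

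Of the 11 genes from squalene onward, Cyp51, the lanosterol demethylase (ENSMUSG00000001467, chromosome 5 from 4081145 to 4104746), was called and was also past the fold threshold. It was at 42.4, 34.4 and 60.2 CPM in the control libraries and at 97.8, 82.8 and 106 CPM in those labelled cKO. Every library labelled cKO lay above control 3, the highest of the controls, with a log2 fold change of 1.06 (SE 0.20, edgeR adjusted p = 0.0113), or 2.09-fold. Of the 14 alternatives it kept the call in 13 and lost it without cKO 3 (edgeR adjusted p = 0.0707). Without control 2 or cKO 3 its log2 fold change was 0.89 and 0.98, below the fold threshold of 1.

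Tm7sf2, the reductase that acts on the product of Cyp51, went the other way. It was at 5.91, 2.93 and 5.48 CPM in the control libraries and at 1.19, 2.08 and 1.48 CPM in those labelled cKO, which did not overlap. Its log2 fold change of -1.59 was the most negative of the 31 members, but its SE was 0.47, it rested on 26 to 141 counts in a library, and it did not pass (edgeR adjusted p = 0.0546). DESeq2 called it (adjusted p = 0.0149). Tm7sf2 shares 532 exonic bases, 12.1% of its own, with Vps51 on the same strand, so reads of the 2 genes cannot be fully told apart.

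Hsd17b7 was at 23.6, 10.9 and 20.3 CPM in the control libraries and 24.2, 31.2 and 28.1 CPM in those labelled cKO (log2 fold change 0.61, SE 0.26, edgeR adjusted p = 0.166). The groups were apart by a narrow margin between control 1 and cKO 1, and by FPKM these libraries overlapped (5.99 and 5.6). Without control 2 the log2 fold change of Hsd17b7 was 0.34. Nsdhl, which works in the same removal of methyl groups, was at 27.2, 29.7 and 40.6 CPM in the control libraries and 25.3, 20.6 and 23.1 CPM in those labelled cKO (log2 fold change -0.50, SE 0.19, edgeR adjusted p = 0.119). These genes of the same reaction sequence had values in opposite directions, and neither passed the test.

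The desaturase gene Sc5d had no overlap in CPM either (log2 fold change 0.30, SE 0.14, edgeR adjusted p = 0.198). By FPKM its groups overlapped, with control 3 at 27.8 and cKO 2 at 27.1. Sqle, whose product is the oxygen-dependent squalene epoxidase, and Lss had log2 fold changes of 0.33 and 0.42 with overlapping groups, since control 3 (64.7 CPM for Sqle and 30.2 CPM for Lss) stood among the libraries labelled cKO while controls 1 and 2 stood below. The last 4, the squalene synthase gene Fdft1, the oxygenase gene Msmo1, the isomerase gene Ebp and Dhcr7, had log2 fold changes of 0.034, 0.22, -0.19 and -0.21 and overlapped. Ctsb, a cathepsin gene on the other strand, covers 18.3% of the exonic bases of Fdft1, and the sources used here do not say whether counting used strand.

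**Figure D3:**
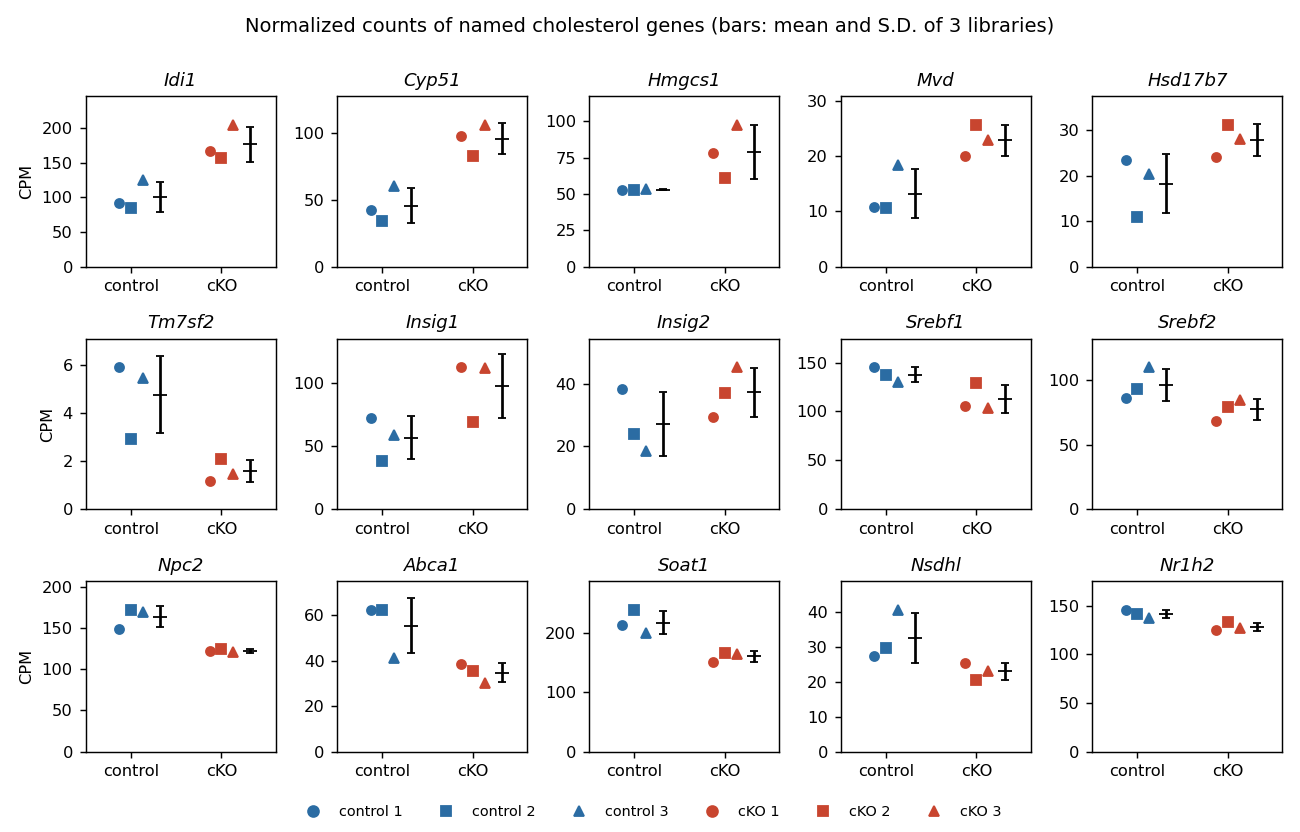
Normalized counts (CPM) of 15 members in each control library (blue) and each library labelled cKO (red), with the mean and S.D. of 3 libraries beside them, each axis starting at 0. Idi1, Cyp51, Hmgcs1 and Mvd were higher in all 3 libraries labelled cKO and Npc2, Abca1 and Soat1 lower in all 3, while Insig1 and Insig2 overlapped.

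The sensors did not move as a unit. Srebf1, whose protein leans toward fatty acid genes, was at 145, 137 and 130 CPM in the control libraries and 106, 129 and 103 CPM in those labelled cKO (log2 fold change -0.28, SE 0.13, edgeR adjusted p = 0.172). Srebf2, whose protein leans toward cholesterol genes, was at 86.0, 93.0 and 110 CPM against 68.5, 79.5 and 84.4 CPM, with a log2 fold change of -0.31 (SE 0.14, edgeR adjusted p = 0.174). For both genes the groups lay just apart, by less than 2 CPM at their nearest libraries, and neither passed. By FPKM the groups overlapped for both. Scap was level, with a log2 fold change of -0.086 (SE 0.14).

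Insig1, itself a well known target of SREBP, was at 72.5, 38.6 and 59.0 CPM in the control libraries and 113, 69.0 and 113 CPM in those labelled cKO. Only cKO 2 lay within the range of the control libraries. The log2 fold change was 0.79 (SE 0.25, edgeR adjusted p = 0.0640), and leaving out control 1 or cKO 2 brought the adjusted p to 0.0219 and 0.0418. DESeq2 called it with an adjusted p of 0.00911. Insig2 was at 38.4, 24.0 and 18.6 CPM against 29.4, 36.9 and 45.2 CPM, an overlap set by control 1 (log2 fold change 0.46, SE 0.26, edgeR adjusted p = 0.283). Without control 1 the log2 fold change of Insig2 was 0.80 and was called (edgeR adjusted p = 0.0329), while without control 3 or cKO 3 it was 0.25 and 0.30.

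Transport inside the cell is represented by 3 genes. Npc2, which binds cholesterol inside the lysosome (ENSMUSG00000021242, chromosome 12 from 84754562 to 84773152), was at 149, 172 and 170 CPM in the control libraries and 122, 125 and 120 CPM in those labelled cKO. The latter agreed within 5 CPM and lay below every control library, a log2 fold change of -0.42 (SE 0.11, edgeR adjusted p = 0.0400). Npc1, the membrane protein that takes cholesterol over from Npc2, had a log2 fold change of -0.26 with overlapping groups (SE 0.18, edgeR adjusted p = 0.388). Stard4, a carrier of sterol between membranes, had 0.15 by counts (SE 0.14, edgeR adjusted p = 0.536), yet its deposited FPKM did not overlap, at 13.4, 11.7 and 13.7 in the control libraries and 15.7, 18.7 and 20.3 in those labelled cKO.

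Export and its receptor gave another split. Abca1, which loads cholesterol onto apolipoproteins (ENSMUSG00000015243, chromosome 4 from 53030787 to 53159895), was at 62.3, 62.4 and 41.4 CPM in the control libraries and 38.6, 35.5 and 30.1 CPM in those labelled cKO. Control 3 stood close to the lower group, and the log2 fold change was -0.67 (SE 0.19, edgeR adjusted p = 0.0486). Abcg1, the more abundant exporter gene, was at 459, 339 and 314 CPM against 495, 339 and 353 CPM, a log2 fold change of 0.094 (SE 0.18), and replicate 1 was the highest of each group. Nr1h2 lay lower in every library labelled cKO, but by a small step (log2 fold change -0.14, SE 0.11, edgeR adjusted p = 0.426).

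Storage rests on Soat1 (ENSMUSG00000026600, chromosome 1 from 156424525 to 156474331), which was at 213, 239 and 200 CPM in the control libraries and 150, 166 and 164 CPM in those labelled cKO. No library crossed between the groups, and the log2 fold change was -0.44 (SE 0.12, edgeR adjusted p = 0.0387). By FPKM the groups did overlap, at 48.6, 63.97 and 52.03 in the control libraries and 42.8, 47.5 and 51.4 in those labelled cKO, and limma on log2(FPKM + 1) gave -0.21 (adjusted p = 0.414). Soat2 had 1, 11 and 1 counts in the control libraries and 12, 16 and 0 in those labelled cKO, which is too few to compare (edgeR log2 fold change 1.08, SE 1.34, adjusted p = 0.653).

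The lower calls were the less secure. Npc2 and Soat1 each kept the call in 8 of 14 alternatives and Abca1 in 5, the latter also losing it under limma-voom, RLE factors and library totals alone (adjusted p = 0.0603, 0.0515 and 0.0574). By FPKM none of the 3 was called, with limma adjusted p of 0.0884 for Npc2, 0.105 for Abca1 and 0.414 for Soat1. Leaving out control 2, cKO 1, cKO 2 or cKO 3 ended the call of all 3, as leaving out control 3 did for Npc2 and Soat1 and control 1 for Abca1, with edgeR adjusted p between 0.0585 and 0.184 over these. The log2 fold changes stayed below 0 in all 14 alternatives, between -0.85 and -0.21.

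Beyond the 31 members, 75 further genes of sterol and lipid handling were listed in 5 groups, of which 68 were tested. The 3 called higher made up 4.41% of them, against 4.47% of all tested genes, and the 7 called lower 10.3%, against 5.89%. Among 13 genes that process SREBP or degrade sterol-regulated proteins, 2 were higher and 1 lower. Erlin1, whose protein restrains SREBP activation in the endoplasmic reticulum, rose from 17.5, 19.2 and 15.1 CPM to 36.8, 41.2 and 46.0 CPM (log2 fold change 1.26, SE 0.17, edgeR adjusted p = 0.00408). The chaperone gene Hspa5 also rose (log2 fold change 0.79, SE 0.17, edgeR adjusted p = 0.0205), and Mbtps1, whose protease makes the first cut in SREBP, fell from 278, 287 and 231 CPM to 179, 189 and 173 CPM (log2 fold change -0.56, SE 0.12, edgeR adjusted p = 0.0185). Without control 2, cKO 1 or cKO 3, Hspa5 and Mbtps1 were no longer called.

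Of 14 tested fatty acid genes driven by SREBP, 1 was higher and 2 lower, and 10 had a log2 fold change above 0 (median 0.27). Scd2, a desaturase gene, fell from 404, 425 and 400 CPM to 241, 254 and 244 CPM (log2 fold change -0.73, SE 0.10, edgeR adjusted p = 0.00461), and Acss2, which makes acetyl-CoA from acetate, fell from 82.6, 87.2 and 64.7 CPM to 47.2, 39.2 and 38.8 CPM (log2 fold change -0.90, SE 0.16, edgeR adjusted p = 0.00915). Both genes showed clear gaps between the groups, and Scd2 kept the call in all 14 alternatives, while Acss2 lost it without cKO 3. The elongase gene Elovl5 rose (log2 fold change 0.41, SE 0.11, edgeR adjusted p = 0.0422) and kept the call in 6 of 14. Thus Cyp51 and Idi1 were called higher in the same libraries in which Scd2 and Acss2 were called lower.

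Among 15 tested genes listed for sterol transfer, which include the lipase gene Lipa, 2 were called, both lower. In this list 12 had a log2 fold change below 0 (median -0.16). Of all 11488 tested genes, 5.89% were called lower and 5770 had a log2 fold change below 0. Gramd1a, whose protein moves cholesterol from the plasma membrane to the endoplasmic reticulum, fell from 280, 289 and 260 CPM to 122, 114 and 83.5 CPM, a log2 fold change of -1.37 (SE 0.15, edgeR adjusted p = 0.00349) that held in all 14 alternatives. Lipa, the lysosomal lipase that frees cholesterol from its esters upstream of Npc2, fell from 491, 636 and 481 CPM to 297, 385 and 298 CPM (log2 fold change -0.72, SE 0.15, edgeR adjusted p = 0.0174), a call lost without control 2, cKO 1 or cKO 3. Npc2 and Lipa, which act in the same compartment, were thus both called lower. Of 15 genes in the isoprenoid, dolichol and quinone branches, 1 was called, Rabggta (log2 fold change -0.68, edgeR adjusted p = 0.0195), and of 11 tested LXR targets and oxysterol genes, 1 was called, the receptor partner gene Rxrb (log2 fold change -0.73, edgeR adjusted p = 0.0201). Without control 2, cKO 2 or cKO 3, neither was called, nor was Rxrb without control 3 or cKO 1.

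**Figure D4:**
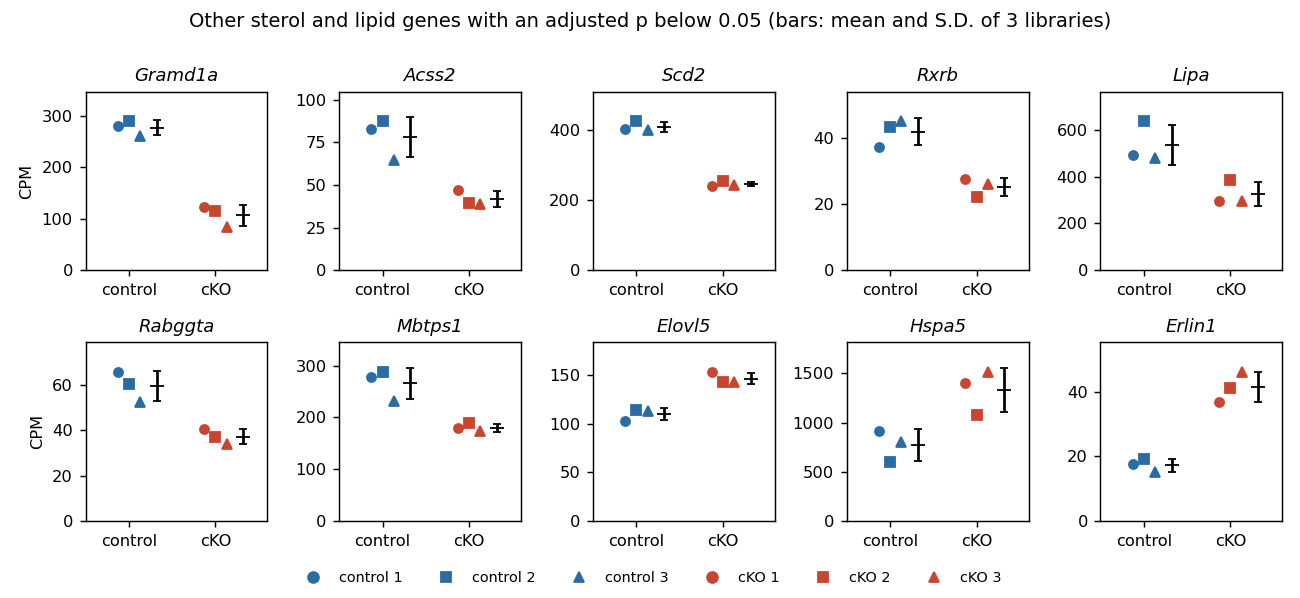
Normalized counts (CPM) of the 10 further sterol and lipid genes with an adjusted p below 0.05, in each control library (blue) and each library labelled cKO (red), with the mean and S.D. of 3 libraries, ordered by log2 fold change. In all 10 the groups were apart, from Gramd1a, lower by a log2 fold change of 1.37, to Erlin1, higher by 1.26.

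Summed over the 18 synthesis enzymes, the control libraries held 708, 724 and 920 CPM and the libraries labelled cKO 939, 935 and 1042 CPM. Control 3 thus stood far nearer to the libraries labelled cKO than to the other controls, as it had for Sqle, Lss and Mvd. Without control 3 the median log2 fold change of the enzymes was 0.32, and without control 1 it was 0.11. Of 17 proliferation markers 7 were called, all of them higher, namely Mcm2, Mcm3, Mcm4, Mcm5, Mcm6, Mcm7 and Pcna. The other 10 were not called, among them Mki67 (log2 fold change 0.23) and Cdk1 (0.24). Of these 10, Ccna2 (-0.046), Top2a (-0.16) and Birc5 (-0.20) lay below 0. The list summed to 5269, 7400 and 8246 CPM in the control libraries and to 8750, 9800 and 11320 CPM in those labelled cKO. Control 3 was the highest control and cKO 3 the highest library here too. The part of cell division in the enzyme levels was not tested.

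Macrophages express Npc2, Lipa, Abca1 and Soat1 strongly, so their markers are given beside these genes. Of 20 macrophage markers 13 were tested, and the 4 called (Adgre1, C1qb, C1qc and Cd68) were higher. Adgre1 had 0 counts in all 3 control libraries and 42 to 52 in those labelled cKO, and Marco, Mertk and Vsig4 had 0 counts in all 6. The list summed to 60.9, 40.2 and 25.6 CPM in the control libraries and 77.2, 70.5 and 87.6 CPM in those labelled cKO, the opposite direction to Npc2, Abca1 and Soat1, and their part in these levels was not tested. Of the tested markers of other cells, 1 of 2 B-cell genes (Cd79b) and 1 of 5 thymic epithelial genes (Cldn4) were called, both lower. The other B-cell gene, Blk, went the other way (log2 fold change 2.04, SE 0.84, edgeR adjusted p = 0.146). Of the 5 epithelial genes, 3 lay below 0 and 2 above, Ccl25 (0.68) and Krt18 (0.84), which were not called. Whether fewer cells of a type or less RNA per cell lay behind a lower level cannot be told apart in such bulk samples.

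**Figure D5:**
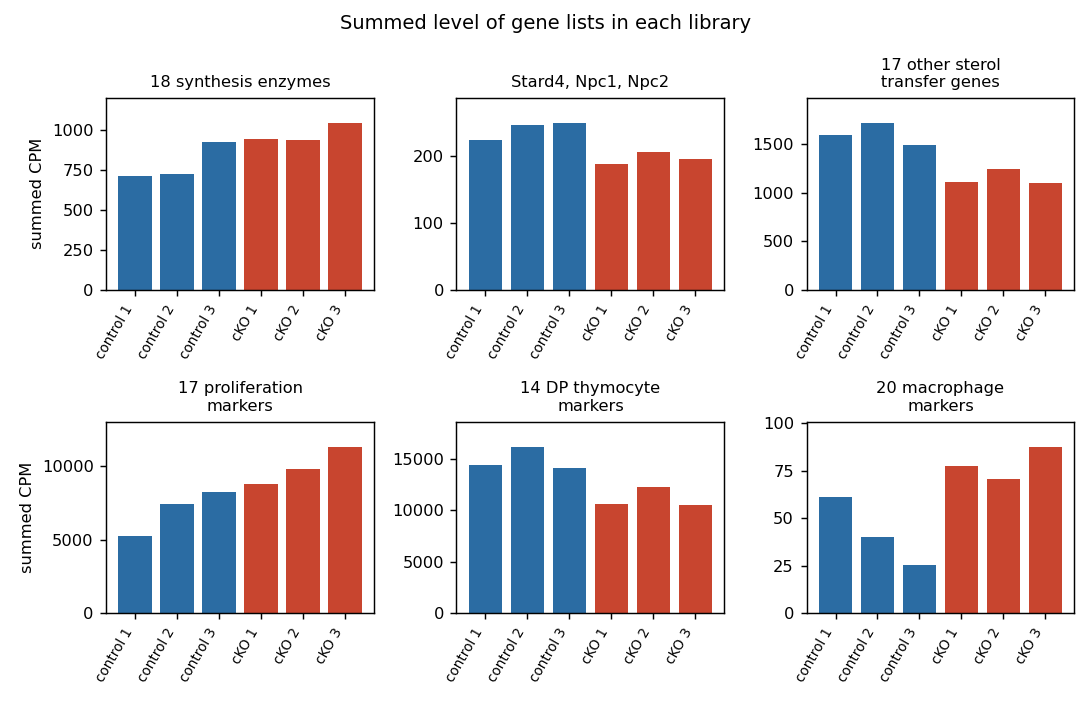
Summed CPM in each library for the 18 synthesis enzymes, the 3 transport members, 17 further sterol transfer genes, and lists of proliferation, DP thymocyte and macrophage markers, each axis starting at 0. The enzymes summed to 708 to 920 CPM in the control libraries (blue) and 935 to 1042 CPM in those labelled cKO (red). Both transport sums lay lower in all 3 libraries labelled cKO. The sum of the 3 transport members was mostly Npc2, and that of the 17 further genes held Lipa and Gramd1a, all called lower.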

How the data were processed

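RNA from sorted DP thymocytes was turned into pre-amplified cDNA and sequenced on an Illumina HiSeq2500. The kit is named differently in the methods (Discover-sc WTA Kit V2) and in the labels (SMARTER). The authors deposited whole-number counts per gene without normalization, together with FPKM, which the authors scaled by the length of each gene and by sequencing depth. The submitters' processing notes name fastp 0.18.0, Bowtie2 2.2.8, HISAT2, StringTie 1.3.1 and RSEM, without their roles, so the counts may be rounded estimates. Build, annotation and use of strand: not given in the sources used here. Deposited group means, fold changes, p-values and FDR are the authors' own comparison and were not used.

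Genes were kept by filterByExpr (minimum count 10, minimum total 15) in edgeR 4.0.16 under R 4.3.3, scaled by TMM and fitted with genotype as the only term, and p-values were adjusted by Benjamini-Hochberg over 11488 genes. The added fold threshold, an absolute log2 fold change above 1, follows the methods. A standard error is the log2 fold change over the root of the F statistic. With 3 libraries against 3 an exact permutation test of a single gene allows no p below 0.1, so none is given. Whether libraries are separate animals is not stated, and the p-values measure the spread between these libraries. Within a group, the chi-square between libraries was 19.7 to 67.9 per degree of freedom, well above sampling noise. No library was thus a repeat sequencing of another. This check cannot tell separate preparations of the same RNA from separate animals. The code was checked on simulated counts.

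Gene positions are from GENCODE M21 on GRCm38, and promoter sequences and start sites from RefSeq on GRCm38.p6. The members and lists were chosen with earlier results of these data known. Values per library are given for members with an adjusted p below 0.05, the 5 others with the largest absolute log2 fold change, Srebf1, Srebf2, Insig1, Insig2, Soat1 and Soat2. Of other lists the genes called are named. Library values of Hmgcs1, Nsdhl, Fdps, Stard4 and Abcg1 were added after they were seen. Alternatives were DESeq2 1.42.0, limma-voom (limma 3.58.1), relative log expression (RLE) factors, library totals alone, no filter, a mean of at least 5 CPM, the replicate number as a block, and leaving out each library. A fit of log2(FPKM + 1) was added after the data were seen.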

Additional observations from a re-analysis of the deposited data

How the results depend on the processing

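The median log2 fold change of the synthesis enzymes stayed above 0 in all 14 alternatives, between 0.11 and 0.32. The 2 members called higher became 5 under DESeq2, 4 without a filter and 4 when a mean of 5 CPM or more was required, and between 0 and 4 when a library was left out. The 3 called lower became 1 by FPKM, where Tm7sf2 was called and Npc2, Abca1 and Soat1 were not, and between 0 and 2 when a library was left out. Past the fold threshold as well, the 1 higher member became 0 to 3 when a library was left out, and the 0 lower became 1 (Tm7sf2) under DESeq2, without a filter and by FPKM. Over all genes, the 514 called higher became 953 under DESeq2 and between 42 (without cKO 3) and 1000 (without control 1), and the 677 called lower became 427 by FPKM and between 78 and 1030 for the same libraries. The cause of these shifts was not tested. Signs changed only when 1 library was left out, for genes whose log2 fold change with all libraries lay between -0.24 (Pmvk) and 0.22 (Msmo1). These were Mvk (0.11) and Pmvk (0.035) without control 3, Fdps without control 1 (-0.25) or cKO 3 (-0.090), Fdft1 without control 1 (-0.013) or control 2 (-0.031), Msmo1 without control 2 (-0.012), and Abcg1 without control 3 (-0.015) or cKO 1 (-0.098). At the other end of their leave-out ranges stood -0.40 for Mvk, -0.44 for Pmvk, 0.29 for Fdps, 0.15 for Fdft1, 0.37 for Msmo1 and 0.27 for Abcg1. With the replicate number as a block, 3 members were higher, Insig1 joining, and 3 lower. Deviations of same-numbered libraries had correlations of 0.045, 0.038 and -0.030 over 11488 genes, so the numbers were not taken as pairs. Soat2 and Tm7sf2 gave no value with a mean of at least 5 CPM.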

Other observations

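Counts and FPKM told different stories for Stard4 and Soat1. The length that the deposited values imply (counts over FPKM, relative to the median gene of the same library) was 1.23, 1.24 and 1.10 for Stard4 in the control libraries and 1.05, 1.02 and 0.814 in those labelled cKO, a log2 ratio of -0.31. For Soat1 it was 1.78, 1.48 and 1.52 against 1.43, 1.44 and 1.29, a log2 ratio of -0.20. Over 9321 genes with at least 1 FPKM in every library, the percentiles 5 and 95 of these log2 ratios were -0.12 and 0.094. Insig2 also lay outside them, at 0.11, and its groups overlapped in both units. Whether the groups overlapped differed between the units for Hsd17b7, Ebp, Sc5d, Srebf1 and Srebf2 as well. For Cyp51 and Idi1 the log2 ratios were 0.012 and -0.00035, so their differences were nearly the same in both units.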
